A study of Homo sapiens with 28 samples.

Results

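The 33 genes described here encode the enzymes of glycolysis, their tissue isoforms, and the transporters and regulators at its entry and exit. They were taken from a list of gene symbols whose rule uses no measured value, although the list was drawn up with earlier results of these data known. All 33 had guides in the CRISPR table, out of 19050 targeted genes, and all 33 were listed in the RNA table, out of 25807 symbols.

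Glycolysis takes up glucose, phosphorylates and splits it, and oxidises the products to pyruvate, yielding ATP and NADH. Lactate dehydrogenase turns pyruvate into lactate and restores NAD+, and monocarboxylate transporters carry lactate out of the cell. Tumour cell lines such as U2OS, a human osteosarcoma line, typically run this route at a high rate in glucose-rich medium.

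The first experiment was a pooled CRISPR knockout screen, in which the count of each guide follows the abundance of the cells that carry it. It compared U2OS p53 KO cells with U2OS p53 WT cells. Each genotype was collected after 96 h in 5 µM etoposide, a topoisomerase II poison that breaks DNA, after 96 h in DMSO, its solvent, and without treatment at 0 h (T0), with 3 libraries in each of the 6 groups. The titles call the 96 h controls untreated and the treatment protocol gives DMSO, so they are called DMSO here. The second was RNA-seq of recipient U2OS cells, p53 WT in every library, kept for 8 h in medium conditioned by other cells. The 5 groups of 2 libraries were medium from p53 KO cells given 31.6 µM etoposide, medium from p53 WT cells given 31.6 µM etoposide, medium from p53 KO cells given DMSO, medium from p53 WT cells given DMSO, and recipients at T0. The labels do not say whether conditioned medium still held etoposide, whether the p53 KO line was 1 clone, or whether libraries came from separate cultures, so p-values measure only the spread between these libraries.

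Screen libraries held 30437296 to 48230735 guide counts and RNA libraries 16825669 to 20290764 gene counts. The bone genes COL1A1, SPARC, RUNX2 and ALPL were well above 0 in every RNA library. SP7, BGLAP and IBSP, which mark the osteoblast lineage and its mature cells, reached at most 0.113, 0.309 and 0.0998 CPM (counts scaled to 1 library size), and COL1A2 at most 1.27 CPM. Of 5 epithelial markers, KRT8 was at 738 to 997 CPM and KRT18 at 420 to 775 CPM, while CDH1 reached at most 7.04, EPCAM 2.74 and KRT19 0.364 CPM. Leukocyte, endothelial and skeletal muscle markers each summed to at most 2.75 CPM in a library. Libraries of a group differed most in 2 places: p53 KO etoposide library C of the screen (chi-square per degree of freedom 17.2 against either partner, and 2.80 to 10.6 in all other screen pairs) and the p53 KO DMSO-medium pair of the RNA set (12.8, and 1.90 to 5.09 in the other pairs).

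Before the knockouts, the transcripts give the makeup of the pathway in these cells. Compared per length, as RPKM (CPM divided by the transcript length in kilobases), 1 isoform carried most of the transcript at most steps. GAPDH, which oxidises glyceraldehyde 3-phosphate, was the highest member, with a median of 4921 RPKM over the 10 libraries (range 4503 to 5200), while the sperm isoform GAPDHS made up 0.189% or less of the transcript at that step. PKM, the pyruvate kinase of most tissues, followed with 1709 RPKM, and the liver and red-cell isoform PKLR had a median of 0.149 RPKM. ENO1 held a median of 96.3% of the enolase transcript, ALDOA 97.8% of the aldolase transcript and PGAM1 96.8% of the mutase transcript. PGK1 was the only phosphoglycerate kinase transcript counted, since its testis copy PGK2 had 0 counts in all 10 libraries.

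Other steps were shared to different degrees, least at the lactate carriers. HK1, the housekeeping hexokinase, held 85.5% to 92.3% of the hexokinase transcript and the inducible HK2 held 7.71% to 14.5%. LDHA, the lactate-forming subunit, held 72.9% to 79.3% of the dehydrogenase transcript and LDHB 20.6% to 27.0%. Among the phosphofructokinases, which commit sugar to glycolysis, PFKL held 35.7% to 44.6%, PFKP 36.9% to 46.3% and PFKM 17.4% to 21.3%, so the ranges of PFKL and PFKP overlapped. SLC2A1 (GLUT1) held 82.7% to 92.3% of the transcript of both glucose transporters, with SLC2A3 (GLUT3) as the rest. Of the lactate carriers, SLC16A1 (MCT1) held 93.1% to 96.0% and SLC16A3 (MCT4) the remainder.

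Guides against the main isoform of several glycolytic enzymes were depleted during growth. Over 96 h in DMSO against T0, summed guide counts of 6 of the 33 genes fell in p53 KO cells, where 3.09% of 19044 genes fell, and of 6 in p53 WT cells, where 5.4% fell. GAPDH, ALDOA, PGAM1, TPI1 and ENO1 fell in both genotypes, GPI passed in p53 KO cells only and PKM in p53 WT cells only. The log2 fold changes of those that fell ran from −0.52 to −0.22 in p53 KO cells and from −0.73 to −0.16 in p53 WT cells. The median over all 33 was −0.03 in p53 KO cells and −0.02 in p53 WT cells, beside 0.00 over all genes in each. Log2 fold changes, their SE and adjusted p-values here and below are from edgeR's quasi-likelihood test with Benjamini-Hochberg adjustment over all genes tested.

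**Figure D1:**
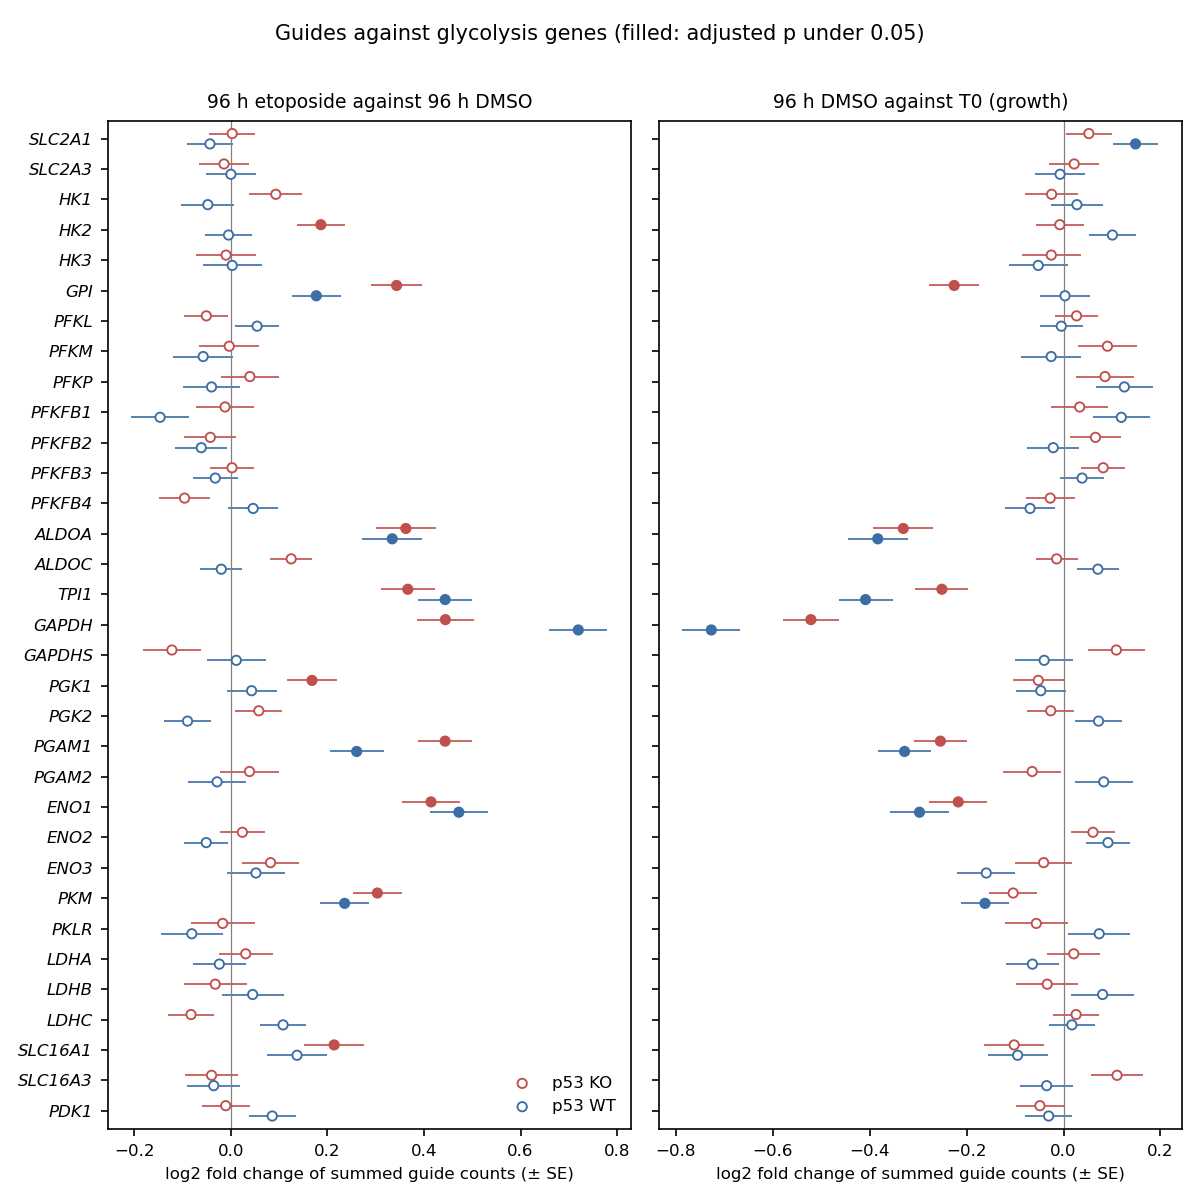
Log2 fold change of summed guide counts (x axis, ± SE) of the 33 genes (y axis, in pathway order) for etoposide against DMSO (left) and DMSO against T0 (right), in p53 KO cells (red) and p53 WT cells (blue), with filled points past the threshold. GAPDH lies farthest from 0 in p53 WT cells, at 0.72 on the left and −0.73 on the right, and the panels share the DMSO libraries.

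GAPDH guides were the most depleted of the 33 in each genotype. In p53 KO cells they summed to 42.8, 38.4 and 38.5 CPM in DMSO, against 57.3, 58.0 and 56.2 CPM at T0. The sums in p53 WT cells were 31.6, 28.1 and 33.5 CPM in DMSO, against 53.5, 47.6 and 53.5 CPM at T0. Neither genotype's DMSO libraries overlapped its T0 libraries. The log2 fold change was −0.52 ± 0.06 in p53 KO cells (adjusted p = 4.73e-11) and −0.73 ± 0.06 in p53 WT cells (adjusted p = 1.01e-17).

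ALDOA cleaves fructose 1,6-bisphosphate and TPI1 interconverts the triose products. ALDOA guides changed by −0.33 ± 0.06 in p53 KO cells (adjusted p = 8.79e-05) and −0.38 ± 0.06 in p53 WT cells (adjusted p = 1.71e-06). TPI1 guides summed to 42.7, 44.2 and 48.5 CPM in p53 KO cells in DMSO, against 51.4, 53.9 and 55.9 CPM at T0. TPI1 guides of p53 WT cells summed to 37.8, 38.3 and 40.5 CPM in DMSO, against 52.9, 51.2 and 50.8 CPM at T0. The TPI1 libraries of DMSO and T0 did not overlap in either genotype, and the log2 fold change was −0.25 ± 0.05 in p53 KO cells (adjusted p = 0.00125) and −0.41 ± 0.06 in p53 WT cells (adjusted p = 1.59e-08).

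PGAM1 moves the phosphate of 3-phosphoglycerate and ENO1 forms phosphoenolpyruvate from the product. PGAM1 guides changed by −0.25 ± 0.06 in p53 KO cells (adjusted p = 0.0011) and −0.33 ± 0.06 in p53 WT cells (adjusted p = 4.88e-06). ENO1 guides changed by −0.22 ± 0.06 in p53 KO cells (adjusted p = 0.0198) and −0.30 ± 0.06 in p53 WT cells (adjusted p = 0.000219). Both fell in each genotype, but the ENO1 call in p53 KO cells ended without T0 library A or B or without DMSO library A or B (adjusted p = 0.165, 0.0556, 0.0779 and 0.0832 on −0.18, −0.23, −0.20 and −0.20).

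GPI, which turns glucose 6-phosphate into fructose 6-phosphate, passed in only 1 genotype. Its guides summed to 46.1, 51.7 and 49.5 CPM in p53 KO cells in DMSO, against 59.2, 60.2 and 52.9 CPM at T0, and changed by −0.23 ± 0.05 (adjusted p = 0.00244). Those of p53 WT cells changed by 0.00 ± 0.05 (adjusted p = 0.985). The GPI call ended without p53 KO T0 library B (adjusted p = 0.0649 on −0.19) or without p53 KO DMSO library A (adjusted p = 0.0527 on −0.18). PKM guides changed by −0.10 ± 0.05 in p53 KO cells (adjusted p = 0.306) and −0.16 ± 0.05 in p53 WT cells (adjusted p = 0.0311), and the call in p53 WT cells ended without T0 library A or C or DMSO library A or B (adjusted p = 0.133, 0.172, 0.0977 and 0.0979 on −0.15, −0.14, −0.15 and −0.15). With scaling to non-targeting guides PKM passed in p53 KO cells too (−0.15, adjusted p = 0.0407).

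SLC2A1 was the only one of the 33 whose guides rose during growth, in p53 WT cells, where 1.13% of genes rose. Its guides summed to 76.5, 69.9 and 73.2 CPM in DMSO, against 64.5, 68.4 and 65.2 CPM at T0, and the log2 fold change was 0.15 ± 0.05 (adjusted p = 0.0346). The call ended without T0 library A or C or DMSO library A or C (adjusted p = 0.157, 0.14, 0.222 and 0.0697 on 0.13, 0.14, 0.11 and 0.15). It also ended with scaling to non-targeting guides (0.08, adjusted p = 0.235) and with the mean over guides in limma (0.13, adjusted p = 0.124). In p53 KO cells no member rose.

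**Figure D2:**
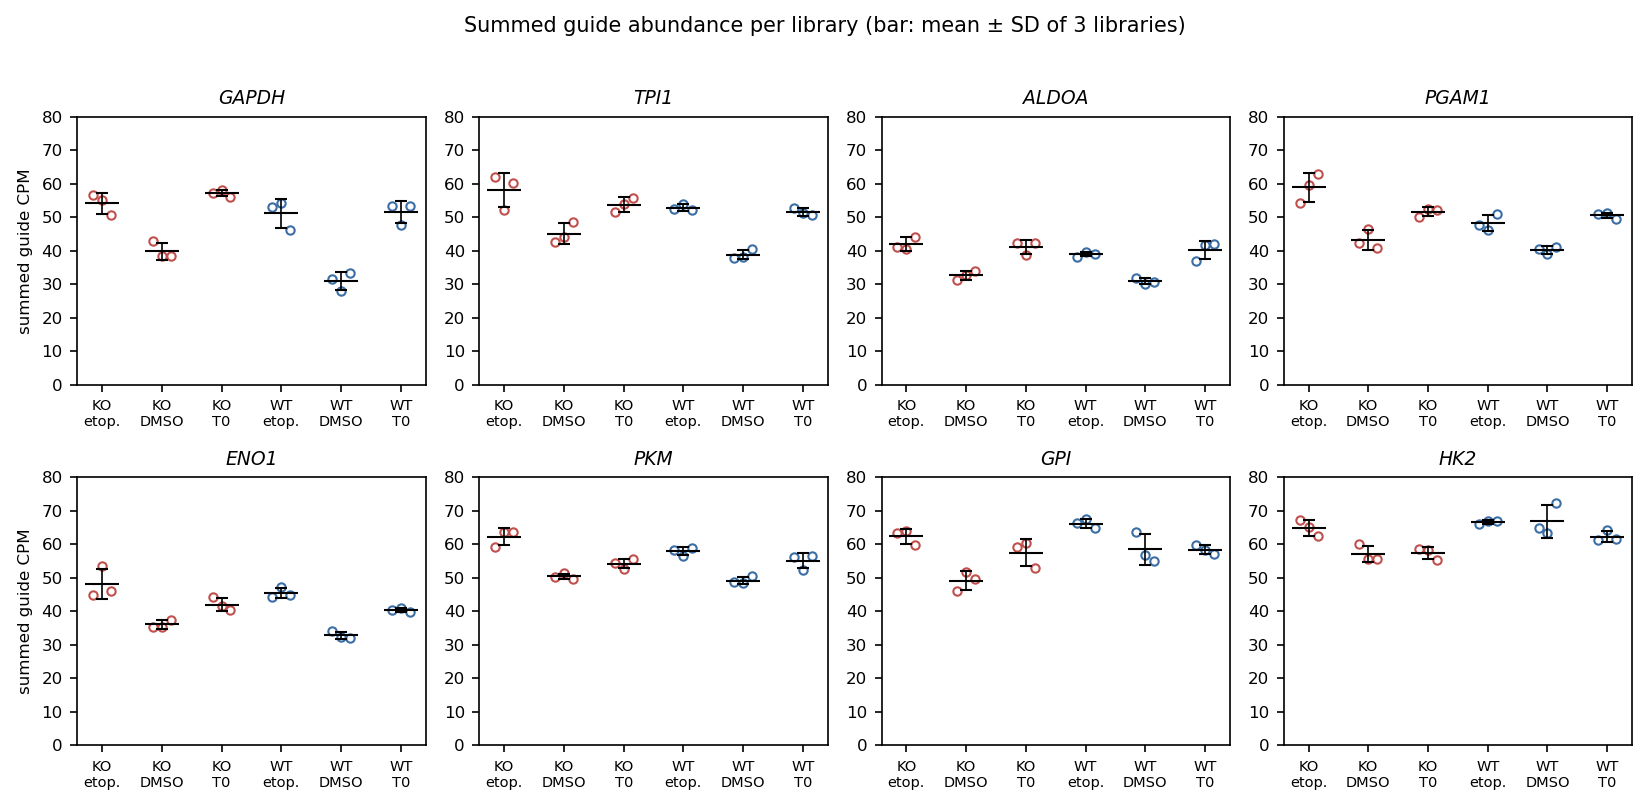
Summed guide CPM (y axis) of 8 genes in each of the 18 screen libraries (circles), by genotype and condition (x axis), with the mean ± SD of 3 libraries as black bars. For GAPDH, TPI1, ALDOA, PGAM1 and ENO1 the DMSO libraries lie below both the etoposide and the T0 libraries in each genotype.

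The difference in growth effect between the genotypes passed for none of the 33, where 0.00525% of genes, which is 1 gene, passed in either direction. At an unadjusted p under 0.05 it held for 3 members, and DESeq2 also called 0. These were GPI (−0.23 ± 0.07, adjusted p = 0.357), GAPDH (0.21 ± 0.08, adjusted p = 0.526) and TPI1 (0.16 ± 0.08, adjusted p = 0.647), where a positive value means less loss in p53 KO cells. No difference between genotypes was thus detected for any enzyme, GPI and PKM included.

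Guides against 7 enzymes stood higher in etoposide than in DMSO in both genotypes. Against DMSO at 96 h, 10 of the 33 rose in p53 KO cells, where 3.05% of genes rose, and 7 rose in p53 WT cells, where 1.91% rose. None of the 33 fell in either genotype. GAPDH, TPI1, ALDOA, PGAM1, ENO1, PKM and GPI rose in both genotypes, and HK2, PGK1 and SLC16A1 passed in p53 KO cells only. The log2 fold changes of those that rose ran from 0.17 to 0.44 in p53 KO cells and from 0.18 to 0.72 in p53 WT cells. The median over the 33 was 0.03 in p53 KO cells and 0.00 in p53 WT cells, beside 0.00 over all genes in each. This comparison and the growth comparison share the DMSO libraries of each genotype, so a low DMSO value gives a loss in one and a gain in the other.

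GAPDH guides summed to 56.7, 55.1 and 50.7 CPM in p53 KO cells with etoposide, against the 42.8, 38.4 and 38.5 CPM in DMSO. Those of p53 WT cells averaged 51.2 ± 4.35 CPM with etoposide (SD, n = 3), from 46.2 to 54.4 CPM, against the 31.6, 28.1 and 33.5 CPM in DMSO. The etoposide libraries lay above the DMSO libraries in both genotypes and overlapped the T0 libraries. The log2 fold change was 0.44 ± 0.06 in p53 KO cells (adjusted p = 9.36e-09) and 0.72 ± 0.06 in p53 WT cells (adjusted p = 2.15e-17).

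ENO1 guides summed to 44.9, 53.4 and 45.9 CPM in p53 KO cells with etoposide, against 35.2, 35.4 and 37.5 CPM in DMSO. Those of p53 WT cells summed to 44.3, 47.2 and 44.8 CPM with etoposide, against 34.1, 32.3 and 31.9 CPM in DMSO. All etoposide libraries were higher than all DMSO libraries of the same genotype, and the log2 fold change was 0.41 ± 0.06 in p53 KO cells (adjusted p = 1.81e-07) and 0.47 ± 0.06 in p53 WT cells (adjusted p = 4.93e-09). TPI1 guides rose by 0.37 ± 0.06 in p53 KO cells (adjusted p = 4.27e-07) and 0.44 ± 0.06 in p53 WT cells (adjusted p = 2.87e-09). ALDOA guides rose by 0.36 ± 0.06 in p53 KO cells (adjusted p = 1.24e-05) and 0.33 ± 0.06 in p53 WT cells (adjusted p = 0.000117).

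PGAM1 guides summed to 54.4, 59.6 and 62.9 CPM in p53 KO cells with etoposide, against 42.4, 46.6 and 40.9 CPM in DMSO. Those of p53 WT cells summed to 47.7, 46.2 and 50.9 CPM with etoposide, against 40.6, 39.0 and 41.2 CPM in DMSO. Neither pair of groups overlapped, and the log2 fold change was 0.44 ± 0.06 in p53 KO cells (adjusted p = 9.78e-10) and 0.26 ± 0.06 in p53 WT cells (adjusted p = 0.00115). PKM guides rose by 0.30 ± 0.05 in p53 KO cells (adjusted p = 5.3e-06) and 0.24 ± 0.05 in p53 WT cells (adjusted p = 0.0011). GPI guides rose by 0.34 ± 0.05 in p53 KO cells (adjusted p = 5.69e-07) and 0.18 ± 0.05 in p53 WT cells (adjusted p = 0.0377). The GPI call in p53 WT cells ended when DMSO library B or C or etoposide library A, B or C was left out (adjusted p = 0.165, 0.237, 0.114, 0.189 and 0.073 on 0.16, 0.13, 0.18, 0.16 and 0.19).

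The 3 genes past the threshold in p53 KO cells only sit at the entry, middle and exit of the pathway. HK2, which phosphorylates glucose, had guide sums of 67.1, 65.0 and 62.4 CPM with etoposide, against 59.9, 55.6 and 55.7 CPM in DMSO, and rose by 0.19 ± 0.05 (adjusted p = 0.0119). In p53 WT cells HK2 changed by −0.00 ± 0.05 (adjusted p = 0.984). SLC16A1 rose by 0.21 ± 0.06 in p53 KO cells (adjusted p = 0.0274), against 0.14 ± 0.06 in p53 WT cells (adjusted p = 0.301). PGK1, which makes the first ATP of the route, rose by 0.17 ± 0.05 in p53 KO cells (adjusted p = 0.0445), against 0.04 ± 0.05 in p53 WT cells (adjusted p = 0.794).

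These 3 calls each ended when single libraries were left out, while the other 7 held in all 12 settings tried. Other settings ended them too. The mean over guides in limma ended HK2 (0.15, adjusted p = 0.0982). Using only the libraries compared ended PGK1 (0.17, adjusted p = 0.104) and SLC16A1 (0.21, adjusted p = 0.0732). HK2 lost its call without DMSO library B or C or etoposide library A (adjusted p = 0.068, 0.0584 and 0.0982 on 0.17, 0.17 and 0.16). PGK1 lost it without DMSO library B or C or any 1 etoposide library (adjusted p = 0.0639 to 0.227). SLC16A1 lost it without any 1 etoposide library (adjusted p = 0.0607 to 0.101) and without DMSO library C, where the value fell to 0.10 (adjusted p = 0.459). In these p53 KO libraries DMSO library C held 32.6 CPM of SLC16A1 guides, against 43.9 and 40.6 CPM in A and B.

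The difference in etoposide effect between genotypes passed for none of the 33, where 0.0525% of genes passed in either direction. An unadjusted p under 0.05 was reached by 7 members, and DESeq2 also called 0. Among these GAPDH gained less in p53 KO cells (−0.28 ± 0.08, adjusted p = 0.186), while HK2 (0.19 ± 0.07, adjusted p = 0.284), PGAM1 (0.18 ± 0.08, adjusted p = 0.383) and GPI (0.17 ± 0.07, adjusted p = 0.395) had values above 0. That HK2, PGK1 and SLC16A1 passed in 1 genotype is therefore not shown to be a difference between genotypes.

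Set against T0, few members differed after 96 h in etoposide. In p53 KO cells 2 of the 33 were higher than at T0, where 0.378% of genes were higher, and in p53 WT cells 0 passed, where 0.856% of genes passed in either direction. In p53 WT cells edgeR gave 5 members an unadjusted p under 0.05, and DESeq2 called 0. The 2 in p53 KO cells were PKM (0.20 ± 0.05, adjusted p = 0.0191) and HK2 (0.18 ± 0.05, adjusted p = 0.0421). PKM guides summed to 59.3, 63.7 and 63.8 CPM with etoposide, against 54.5, 52.7 and 55.4 CPM at T0. GAPDH guides, the most depleted in DMSO, summed to 56.7, 55.1 and 50.7 CPM with etoposide, against 57.3, 58.0 and 56.2 CPM at T0 in p53 KO cells, and these groups overlapped.

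Leaving out p53 KO T0 library A or B or etoposide library B left 0 of these 2 calls. Without T0 library C or etoposide library A the HK2 call ended (0.15 in each case, adjusted p = 0.263 without T0 library C and 0.237 without etoposide library A), and without etoposide library C the PKM call ended (0.18, adjusted p = 0.122). Scaling to the non-targeting guides left 0 and DESeq2 gave 4. This comparison shares the etoposide libraries with the one against DMSO and the T0 libraries with the growth comparison.

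Single guides show what carried the sums. The 33 genes had 185 guides, 4 to 6 each. During growth 6 of the 185 fell in p53 KO cells, where 0.555% of all 109367 guides fell, and 15 fell in p53 WT cells, where 1.37% fell. With etoposide against DMSO 14 of the 185 rose in p53 KO cells, where 0.632% of guides rose, and 12 rose in p53 WT cells, where 0.341% rose. GAPDH had 6 guides, and their growth values ran from −1.36 to 0.19 in p53 KO cells and from −1.83 to −0.14 in p53 WT cells. Of these 6, 3 fell in p53 KO cells and 5 in p53 WT cells, so the depletion was uneven between guides of 1 gene.

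PGAM1 was the most even of the depleted genes by the SD over its guides in p53 WT cells: all 6 had growth values below 0 in both genotypes, with a mean of −0.27 ± 0.18 in p53 KO cells and −0.33 ± 0.16 in p53 WT cells (SD over guides). PKM was uneven, with a mean of −0.14 ± 0.27 in p53 KO cells and −0.19 ± 0.29 in p53 WT cells. The same PKM guide fell in both genotypes (−0.65 in p53 KO cells and −0.55 in p53 WT cells), and 1 other fell in p53 WT cells alone (−0.55). The other 4 PKM guides lay between −0.16 and 0.09 in p53 KO cells and between −0.18 and 0.09 in p53 WT cells. The calls in p53 KO cells also held 1 guide against PDK1, and 1 guide against GAPDHS rose there. For ENO1 all 5 guides had values below 0 during growth in p53 WT cells and 4 of 5 in p53 KO cells. Guides of 1 gene share their target and are not replicates of a condition.

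**Figure D3:**
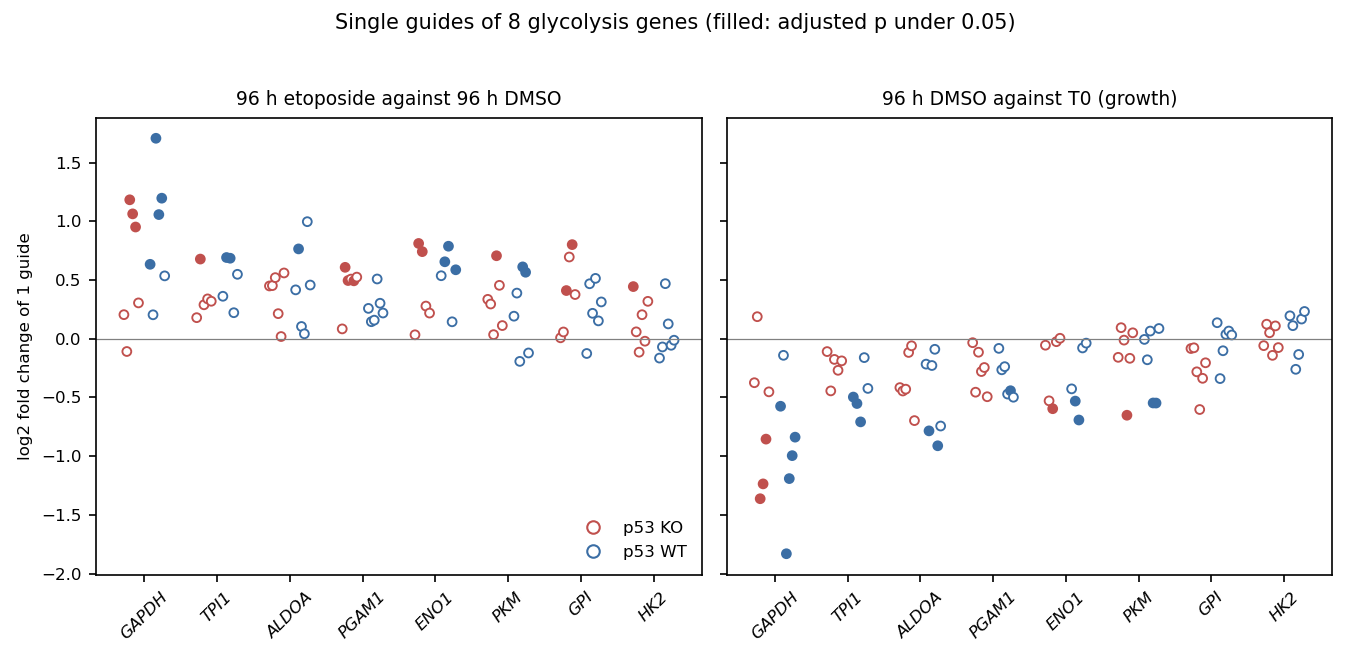
Log2 fold change (y axis) of each guide against 8 genes (x axis) for etoposide against DMSO (left) and DMSO against T0 (right), in p53 KO cells (red) and p53 WT cells (blue), with filled points past the threshold over all guides. GAPDH guides spread most, from −1.83 to −0.14 during growth in p53 WT cells, while PGAM1 guides lie close together.

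RefSeq lists pseudogenes named after 13 of the 33 genes, 65 for GAPDH and 13 for PGAM1, 6 for LDHA, 5 for PKM and 4 each for TPI1 and ENO1. Guide sequences are not used here, so whether guides also match such copies was not tested.

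With the main scaling (TMM), the remaining isoforms and regulators passed, as genes, in neither the growth nor the etoposide against DMSO comparison of either genotype. With scaling to non-targeting guides ENO3 fell during growth in p53 WT cells (−0.23, adjusted p = 0.00406). With that scaling LDHC rose with etoposide in p53 WT cells (0.15, adjusted p = 0.046) and ALDOC in p53 KO cells (0.14, adjusted p = 0.0348). The values that follow are from the main scaling. HK1 guides changed by −0.02 ± 0.05 in p53 KO cells and 0.03 ± 0.05 in p53 WT cells during growth. LDHA guides changed by 0.02 ± 0.05 in p53 KO cells and −0.06 ± 0.05 in p53 WT cells, and LDHB guides by −0.03 ± 0.06 in p53 KO cells and 0.08 ± 0.06 in p53 WT cells. The 3 phosphofructokinases lay between 0.03 and 0.09 in p53 KO cells and between −0.03 and 0.13 in p53 WT cells. The bifunctional enzymes PFKFB1 to PFKFB4, which set the level of the phosphofructokinase activator fructose 2,6-bisphosphate, the transporters SLC2A3 and SLC16A3, and PDK1, which switches off pyruvate dehydrogenase, were also without a call.

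The depleted genes were among the members with the highest transcript level per length. Ranked by median RPKM, the 10 highest were GAPDH, PKM, ENO1, LDHA, TPI1, ALDOA, LDHB, PGK1, PGAM1 and GPI, from 4921 down to 103 RPKM, and HK1 came next with 65.1. The line after rank 10 was drawn with the calls known. With the main scaling, of these 10, 6 fell during growth in p53 KO cells and 6 in p53 WT cells, and of the other 23 none fell in either. With scaling to non-targeting guides ENO3, at 7.35 RPKM, also fell in p53 WT cells (−0.23, adjusted p = 0.00406). Over all screen genes matched in the RNA table, 618 reached 103 RPKM, and of these 15.7% fell during growth in p53 KO cells and 23.8% in p53 WT cells, against 2.61% and 4.69% of the 17959 below it. LDHA, LDHB and PGK1 were in the top 10 and did not fall in either genotype. The RNA came from p53 WT recipients and not from the screened pools.

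**Figure D4:**
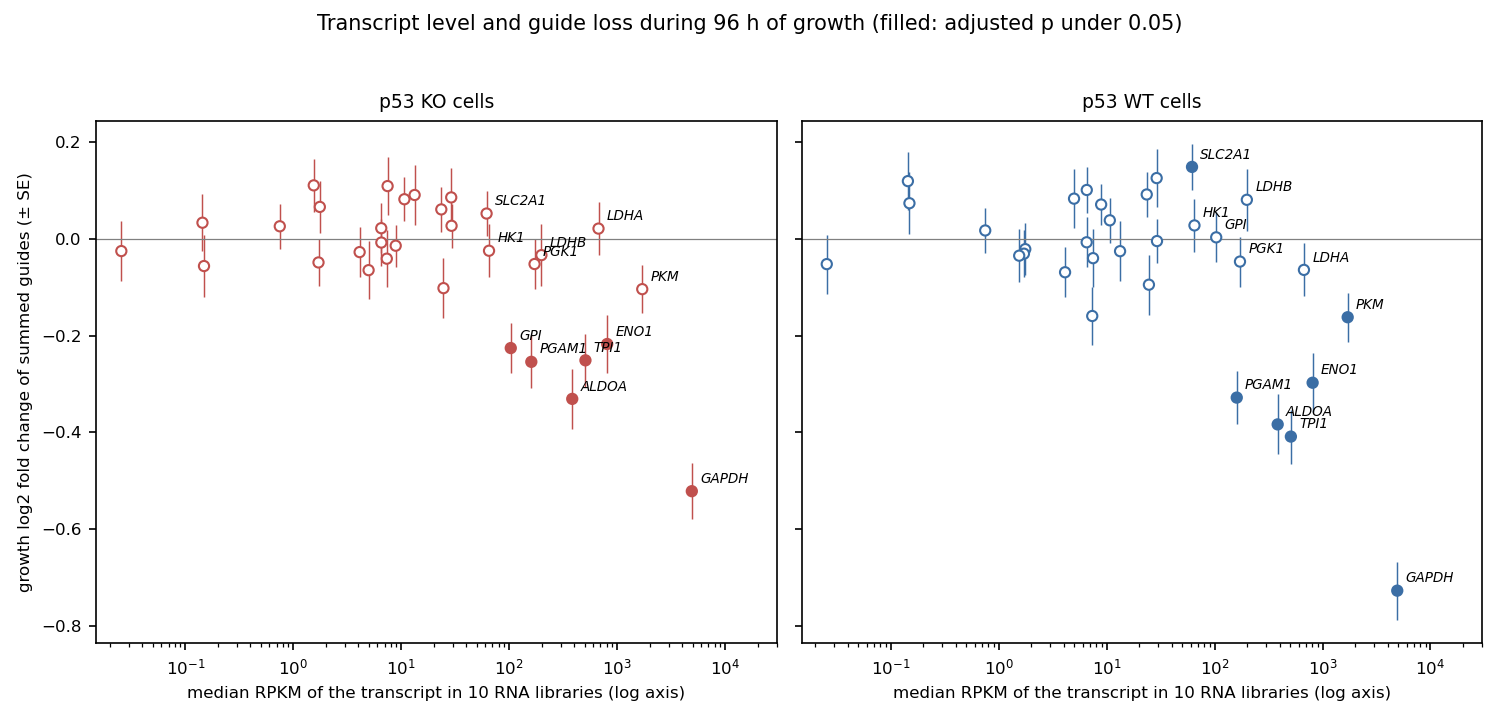
Growth log2 fold change of summed guides (y axis, ± SE) against the median RPKM over 10 RNA libraries (x axis, log scale) in p53 KO cells (left) and p53 WT cells (right), with filled points past the threshold and PGK2, at 0 RPKM, left out. With the main scaling, which is drawn here, genes that fell all lie at 103 RPKM or above, where LDHA, LDHB and PGK1 stay near 0.

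In the pentose phosphate pathway, which branches off at glucose 6-phosphate and yields NADPH, guides against PGD, one of its dehydrogenases, changed during growth by −0.19 ± 0.06 in p53 KO cells (adjusted p = 0.0493) and −0.18 ± 0.06 in p53 WT cells (adjusted p = 0.0381). With etoposide against DMSO, PGD guides rose by 0.33 in p53 KO cells and 0.24 in p53 WT cells, and guides against the transketolase TKT rose by 0.26 in p53 KO cells.

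Past pyruvate the counts called were small in lists of 8 to 16 genes and near the shares over all genes given above, so they are no result about these lists. Of 12 genes for the entry of pyruvate into mitochondria none passed in the growth or etoposide against DMSO comparisons. Among genes of the tricarboxylic acid cycle, SDHD fell during growth in p53 KO cells (−0.24) and none fell in p53 WT cells. Of 8 genes of the NADH shuttles GOT1 rose with etoposide in p53 KO cells (0.19). None of 15 genes of gluconeogenesis and glycogen passed in the growth or etoposide against DMSO comparisons. Among 14 other isoforms and partners, LDHAL6B rose with etoposide in p53 KO cells (0.18) and no other gene passed in these 4 comparisons. Of 16 genes of the hypoxia response, VHL fell during growth in p53 KO cells (−0.19) and p53 WT cells (−0.20), and with etoposide in p53 KO cells VHL rose (0.21) and ADM fell (−0.17).

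At the RNA level the question is what conditioned medium did to the same genes in recipient cells. Of the 33 genes 31 passed the filter on low counts. HK3, with at most 6 counts in a library, and PGK2 did not. In bulk libraries fewer cells with a transcript and less of it per cell cannot be told apart. The 33 together took 2.26% to 2.50% of the counts in every library.

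Promoter sequences are shown for 3 genes on which the RNA results below turn: HK2 and SLC2A1, higher with medium from etoposide-treated p53 KO cells than with that from p53 WT cells, and LDHA, which was lower with medium from etoposide-treated than from DMSO-treated p53 WT cells. Each run is the 250 bases before the RefSeq gene start, 5′ to 3′ on the gene's strand, GRCh38.p14: HK2 at chr2:74833877-74834126 on the plus strand, SLC2A1 at chr1:42958869-42959118 on the minus strand and LDHA at chr11:18394313-18394562 on the plus strand. Capitals mark the hypoxia response core ACGTG or GCGTG on either strand, the letters that hypoxia-inducible factors recognise in glycolysis genes.
HK2: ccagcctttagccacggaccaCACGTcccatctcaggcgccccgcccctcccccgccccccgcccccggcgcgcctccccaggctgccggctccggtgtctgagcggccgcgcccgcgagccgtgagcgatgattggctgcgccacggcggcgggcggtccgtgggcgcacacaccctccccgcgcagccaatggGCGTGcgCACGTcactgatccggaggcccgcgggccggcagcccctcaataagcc
SLC2A1: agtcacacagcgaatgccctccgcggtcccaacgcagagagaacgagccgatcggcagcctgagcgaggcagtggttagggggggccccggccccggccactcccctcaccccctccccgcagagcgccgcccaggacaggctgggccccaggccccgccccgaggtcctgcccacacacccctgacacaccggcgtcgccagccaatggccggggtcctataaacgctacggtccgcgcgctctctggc
LDHA: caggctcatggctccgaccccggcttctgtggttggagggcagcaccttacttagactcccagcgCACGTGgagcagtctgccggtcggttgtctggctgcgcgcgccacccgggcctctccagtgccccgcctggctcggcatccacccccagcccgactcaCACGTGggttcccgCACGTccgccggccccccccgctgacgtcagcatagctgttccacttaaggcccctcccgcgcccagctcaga
HK2 held 2 matches to ACGTG and 1 to GCGTG. LDHA held 5 matches to ACGTG, 4 of them as overlapping pairs on both strands within 2 CACGTG letters, and SLC2A1 held none in this window. Of the 33 genes 30 had an entry, and PFKFB2, SLC2A3 and SLC16A1 had none. Either core was found in 17 of the 30 (56.7%), against 43.1% of 27305 promoters of the same length. ACGTG alone was in 33.3%, against 18.7%, and GCGTG alone in 36.7%, against 31.9%. CACGTG, which contains ACGTG, was in 13.3%, against 6.49%. A match describes letters and is not a measured site.

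Between media from etoposide-treated cells, p53 KO medium against p53 WT medium, 4 of 31 transcripts rose, where 8.5% of 15391 transcripts rose, and none of the 31 passed as lower. They were HK2, SLC2A3, SLC2A1 and SLC16A1, which take up glucose, phosphorylate it, or carry lactate and pyruvate across the membrane. The share of 4 in 31 is near the background. The median of the 31 was 0.06, beside −0.01 over all transcripts.

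HK2 had 78.3 and 79.4 CPM with medium from etoposide-treated p53 KO cells, against 47.6 and 49.2 CPM with medium from etoposide-treated p53 WT cells. It was 41.3 and 64.0 CPM with medium from DMSO-treated p53 KO cells, 39.8 and 37.9 CPM with medium from DMSO-treated p53 WT cells, and 42.7 and 45.2 CPM at T0. Both p53 KO etoposide libraries were above all 8 others, and p53 KO DMSO library B stood apart from its pair. The log2 fold change between the etoposide media was 0.71 ± 0.13 (adjusted p = 0.00129), and the authors' deposited table, which matches this contrast, lists 0.70 (adjusted p = 4.17e-05).

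SLC2A3 had 37.1 and 35.4 CPM with p53 KO etoposide medium, against 26.0 and 24.2 CPM with p53 WT etoposide medium, and rose by 0.53 ± 0.10 (adjusted p = 0.00173). SLC2A1 had 235 and 257 CPM with p53 KO etoposide medium, against 185 and 188 CPM with p53 WT etoposide medium, and rose by 0.40 ± 0.07 (adjusted p = 0.00156). The 2 media did not overlap for either transporter, but for SLC2A1 the DMSO medium of p53 KO cells, at 228 and 256 CPM, was as high as their etoposide medium. SLC16A1 had 136 and 143 CPM with p53 KO etoposide medium, against 122 and 115 CPM with p53 WT etoposide medium, and rose by 0.24 ± 0.07 (adjusted p = 0.0335), a call that ended when any 1 of these 4 libraries was left out (adjusted p = 0.0800 to 0.216 on 0.20 to 0.27). The sum of a marker list moved with this contrast. The neural genes SNAP25, SYP and GFAP summed to 34.1 and 35.2 CPM with p53 KO etoposide medium, against 20.3 and 20.7 CPM with p53 WT etoposide medium. Over all RNA libraries SYP ran from 8.06 to 28.0 CPM, SNAP25 only from 6.54 to 9.26 and GFAP from 0.101 to 0.566. The move of the sum was thus that of SYP and not of the list, and its part in these results was not tested.

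**Figure D5:**
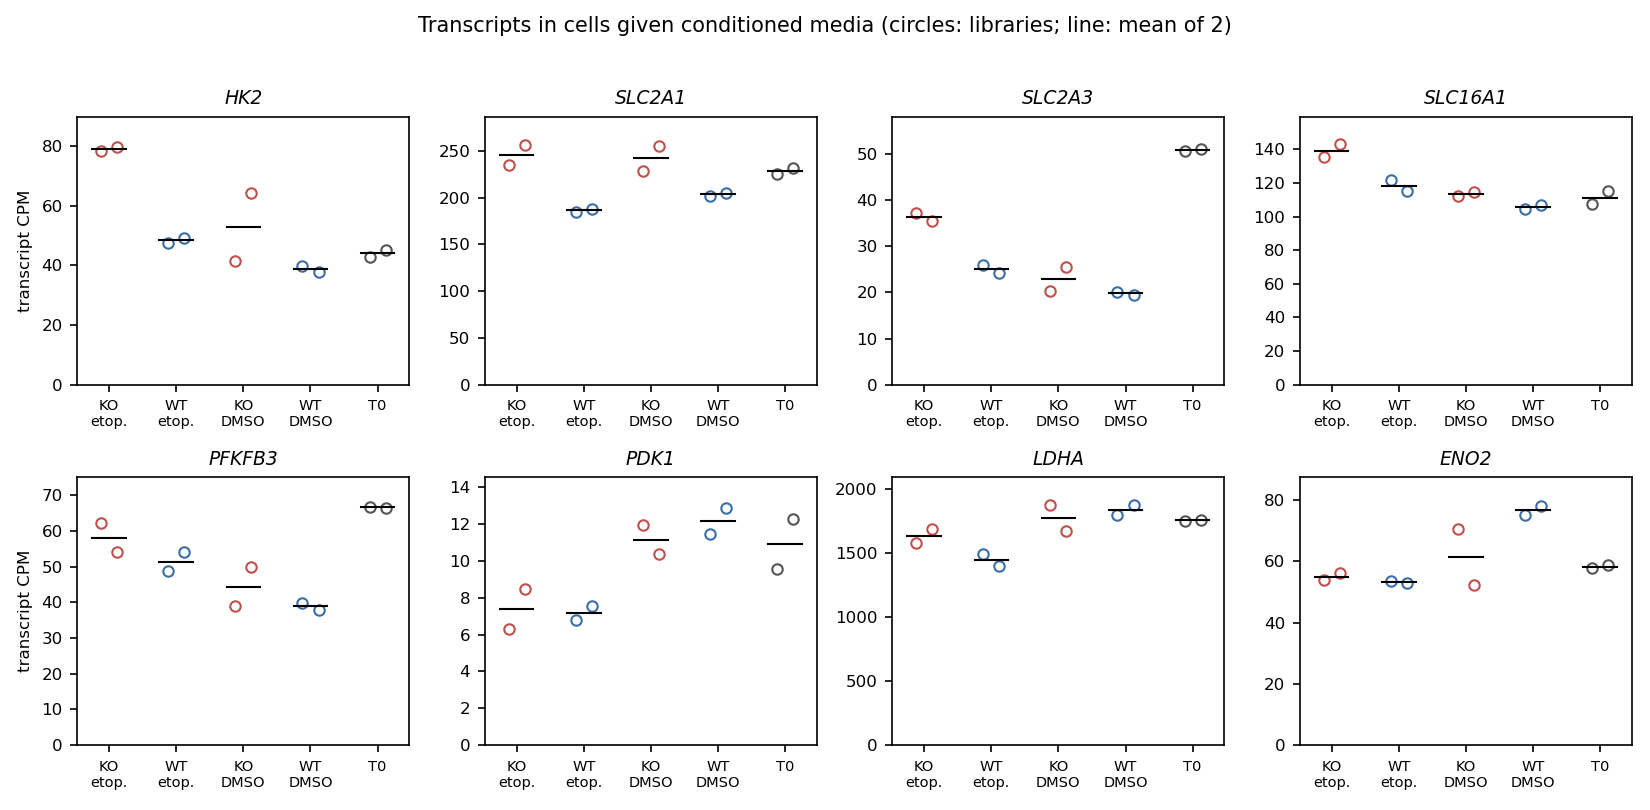
Transcript CPM (y axis, from 0) of 8 genes in each of the 10 RNA libraries (circles), by medium and T0 (x axis), with the mean of 2 libraries as a black line. HK2 is highest with p53 KO etoposide medium, at 78.3 and 79.4 CPM, while PDK1 is lower with both etoposide media than with both DMSO media.

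Etoposide medium against DMSO medium moved 10 of the 31 transcripts with p53 KO cells as the source and 9 with p53 WT cells. With p53 KO media 5 rose, where 18.8% of transcripts rose, and 5 fell, where 18.4% fell. With p53 WT media 2 rose, where 16.1% of transcripts rose, and 7 fell, where 18.5% fell. These shares are near the background, so the counts are no result about glycolysis as a group. The median was −0.10 with p53 KO media and −0.12 with p53 WT media, beside −0.01 and 0.01 over all transcripts.

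SLC2A3 and PFKFB3 rose with both media, and HK2 with p53 KO media. SLC2A3 had 37.1 and 35.4 CPM with etoposide medium against 20.4 and 25.4 CPM with DMSO medium of p53 KO cells, and 26.0 and 24.2 CPM against 20.0 and 19.5 CPM for p53 WT cells. No pair overlapped, and the log2 fold change was 0.66 ± 0.10 with p53 KO media (adjusted p = 3.53e-05) and 0.34 ± 0.10 with p53 WT media (adjusted p = 0.0154). PFKFB3, the inducible form that favours synthesis of fructose 2,6-bisphosphate, rose by 0.39 ± 0.10 with p53 KO media (adjusted p = 0.00617) and 0.40 ± 0.11 with p53 WT media (adjusted p = 0.00621). HK2 rose by 0.58 ± 0.13 with p53 KO media (adjusted p = 0.00124), against 0.32 ± 0.13 with p53 WT media (adjusted p = 0.0702).

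Both lactate carriers rose with p53 KO media. SLC16A1 rose by 0.29 ± 0.07 (adjusted p = 0.00297), against 0.16 ± 0.07 with p53 WT media (adjusted p = 0.0936). SLC16A3 was low in all libraries, at 4.79 and 4.16 CPM with etoposide medium, against 3.21 and 2.57 CPM with DMSO medium of p53 KO cells, and rose by 0.63 ± 0.20 (adjusted p = 0.018). For p53 WT media it changed by 0.53 ± 0.20 (adjusted p = 0.051). The SLC16A3 call ended with DESeq2 (adjusted p = 0.0744), with only the libraries compared (0.0504), without DMSO library B (0.111) or without etoposide library A (0.138).

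PDK1, PFKP and PFKM fell with both media. PDK1 had 6.29 and 8.48 CPM with etoposide medium, against 11.9 and 10.4 CPM with DMSO medium of p53 KO cells, and changed by −0.60 ± 0.16 (adjusted p = 0.00679). With p53 WT media PDK1 had 6.80 and 7.53 CPM with etoposide, against 11.5 and 12.9 CPM with DMSO, and changed by −0.77 ± 0.16 (adjusted p = 0.00106). Its etoposide libraries lay below its DMSO libraries in both. PFKM changed by −0.34 ± 0.08 with p53 KO media (adjusted p = 0.00175) and −0.26 ± 0.08 with p53 WT media (adjusted p = 0.0134). PFKP changed by −0.46 ± 0.09 with p53 KO media (adjusted p = 0.000614) and −0.27 ± 0.09 with p53 WT media (adjusted p = 0.0334), and the second call ended when any 1 of its 4 libraries was left out (adjusted p = 0.0736 to 0.186).

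Of the main enzymes and the minor enolases some passed with 1 source of medium only, and their values with the other source are not given here. None of them passed the test of the difference between sources below, so none is shown to differ by source. LDHA had 1486 and 1399 CPM with etoposide medium, against 1797 and 1875 CPM with DMSO medium of p53 WT cells, and fell (−0.35 ± 0.07, adjusted p = 0.00107). ENO2, the neuronal enolase, had 53.6 and 52.8 CPM against 75.0 and 78.2 CPM in the same media and fell (−0.53 ± 0.10, adjusted p = 0.000558). Neither transcript overlapped between these groups. PGAM1 (−0.24 ± 0.07, adjusted p = 0.0085) and PKM (−0.23 ± 0.07, adjusted p = 0.015) also fell with p53 WT media, and ENO3, the muscle enolase (−0.46 ± 0.13, adjusted p = 0.00879), and ENO1 (−0.21 ± 0.07, adjusted p = 0.0235) fell with p53 KO media.

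Libraries decided several of these calls. With p53 KO media, leaving out DMSO library A ended PFKFB3 (0.20, adjusted p = 0.117), DMSO library B ended ENO1 (adjusted p = 0.0503), etoposide library A ended ENO1, PFKFB3 and PDK1 (adjusted p = 0.143, 0.132 and 0.121) and etoposide library B ended ENO3 (adjusted p = 0.0632). HK2 was 0.28 without DMSO library A and 0.94 without B, and PFKP −0.26 without DMSO library B, with their calls kept. Without etoposide library A 6 members passed in place of 10, and with p53 WT media 5 passed in place of 9 without DMSO library A or B or etoposide library B. With p53 WT media, SLC2A3, PFKFB3, PFKM, PGAM1 and PKM each lost the call without at least 1 of the 4 libraries: SLC2A3 without DMSO A, DMSO B or etoposide A (adjusted p = 0.0647, 0.091 and 0.12), PFKFB3 without DMSO B or etoposide B (0.0652 and 0.0838), PFKM without DMSO A or etoposide A (0.124 and 0.133), PGAM1 without DMSO B or etoposide B (0.0739 and 0.0689) and PKM without DMSO A or etoposide B (0.107 and 0.167).

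The effect of etoposide medium did not differ between the sources for any of the 31 past the threshold, where 2.12% of transcripts passed in either direction. An unadjusted p under 0.05 was reached by 5 members, and DESeq2 called 0. The lowest p was that of PFKL (−0.38 ± 0.11, adjusted p = 0.0741), followed by ENO2 (0.37 ± 0.15, adjusted p = 0.182). Leaving out p53 KO DMSO library A gave 4 calls and leaving out library B gave 2.

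DMSO media of p53 KO and p53 WT cells differed in none of the 31, where 1.56% of transcripts passed in either direction. Here 6 had an unadjusted p under 0.05, and DESeq2 called 1. SLC2A1 had 228 and 256 CPM with p53 KO medium, against 202 and 205 CPM with p53 WT medium, and changed by 0.25 ± 0.07 (adjusted p = 0.077). HK2 changed by 0.44 ± 0.13 (adjusted p = 0.0777), with p53 KO library B at 64.0 CPM and A at 41.3 CPM. This pair differed more than any other RNA pair (chi-square per degree of freedom 12.8, against 1.90 to 5.09 in the other groups), and without p53 KO library A 11 members passed, while without library B 0 did.

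Against recipients at T0, transcripts moved in both directions with DMSO medium of either source. With medium of p53 KO cells 7 of the 31 rose, where 18.1% of all rose, and 6 fell, where 18.7% fell. With medium of p53 WT cells 6 of the 31 rose, where 17.8% rose, and 5 fell, where 17.6% fell. Both share the T0 libraries, and the shares are near the background. The labels give no fresh-medium group at 8 h, so medium and time cannot be told apart.

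The largest fall was that of SLC2A3, with 20.4 and 25.4 CPM with p53 KO DMSO medium and 20.0 and 19.5 CPM with p53 WT DMSO medium, against 50.6 and 51.2 CPM at T0. It changed by −1.15 ± 0.10 with p53 KO medium (adjusted p = 5.72e-08) and −1.36 ± 0.10 with p53 WT medium (adjusted p = 6.56e-09). PFKFB3 had 39.0 and 49.9 CPM with p53 KO medium and 39.9 and 37.9 CPM with p53 WT medium, against 66.8 and 66.6 CPM at T0. Both genes were lower in all 4 DMSO-medium libraries than at T0, and both were higher with etoposide medium than with DMSO medium while remaining below T0. PFKFB3 changed by −0.59 ± 0.10 with p53 KO medium (adjusted p = 0.000218) and −0.78 ± 0.10 with p53 WT medium (adjusted p = 1.21e-05).

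PFKFB4, another bifunctional enzyme, went the other way. It had 14.3 and 13.4 CPM with p53 KO medium and 14.5 and 13.6 CPM with p53 WT medium, against 8.92 and 8.60 CPM at T0, and rose by 0.66 ± 0.12 with p53 KO medium (adjusted p = 0.000243) and 0.68 ± 0.12 with p53 WT medium (adjusted p = 0.000171). PFKFB2 changed by −0.80 ± 0.12 with p53 KO medium (adjusted p = 3.3e-05) and −0.49 ± 0.11 with p53 WT medium (adjusted p = 0.0024). The bifunctional enzymes thus split, with PFKFB4 higher and PFKFB2 and PFKFB3 lower. The minor aldolase ALDOC changed by −0.54 ± 0.11 with p53 KO medium (adjusted p = 0.000827) and −0.55 ± 0.11 with p53 WT medium (adjusted p = 0.000699). The muscle forms ENO3 (−0.43 ± 0.12 with p53 KO medium, −0.41 ± 0.12 with p53 WT medium) and, with p53 KO medium, PGAM2 (−1.02 ± 0.19, adjusted p = 0.000435) also fell, while the phosphofructokinase PFKM rose (0.24 ± 0.08 with p53 KO medium, 0.30 ± 0.08 with p53 WT medium).

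Among the main enzymes GPI rose by 0.33 ± 0.07 with p53 KO medium (adjusted p = 0.000825) and 0.24 ± 0.07 with p53 WT medium (adjusted p = 0.00999). PGAM1 rose by 0.19 ± 0.07 with p53 KO medium (adjusted p = 0.0344) and 0.20 ± 0.07 with p53 WT medium (adjusted p = 0.0274). ENO1 (0.24 ± 0.07, adjusted p = 0.0113), ALDOA (0.23 ± 0.07, adjusted p = 0.0098) and PFKP (0.30 ± 0.09, adjusted p = 0.0165) rose with p53 KO medium. The minor isoforms ENO2 (0.40 ± 0.10, adjusted p = 0.00524) and PKLR rose with p53 WT medium. ENO1, ALDOA, PFKP, ENO2, PKLR and PGAM2 each passed with 1 source only. The DMSO media differed in none of the 31, so these are not shown to be differences between sources. PKLR rested on few reads, at 0.612 and 0.860 CPM with p53 WT medium, against 0.158 and 0.215 CPM at T0, and its call ended with DESeq2 (adjusted p = 0.073).

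Without T0 library A or B, each of ENO1, PFKM, PFKP and PGAM1 lost its call with p53 KO medium (adjusted p = 0.0552 to 0.219), ALDOA lost it without T0 library B (0.117) and ENO3 without T0 library A (0.113). PFKP was 0.49 without p53 KO DMSO library A and 0.10 without B (adjusted p = 0.376 without B), and PGAM1 lost its call without p53 KO DMSO library A (0.0608). With p53 WT medium, GPI lost its call without T0 library B or DMSO library A (0.145 and 0.0573), PFKM without T0 A or DMSO A (0.053 and 0.0635), ENO2 without DMSO B (0.0521), ENO3 without T0 A or DMSO B (0.136 and 0.13), PKLR without T0 A, T0 B or DMSO B (0.107, 0.0602 and 0.111) and PGAM1 without any 1 of the 4 (0.062 to 0.199). With p53 KO medium 8 members passed without T0 library A or B in place of 13, and with p53 WT medium 7 passed without DMSO library B in place of 11.

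The shares over all transcripts in the contrast of etoposide media were 8.5% higher and 5.57% lower, and the counts of the lists that follow are near them. At the RNA level 2 of the 16 hypoxia response genes rose with etoposide medium of p53 KO cells against that of p53 WT cells and none fell. NDRG1 rose by 0.38 ± 0.07 (adjusted p = 0.00156) and VEGFA, the angiogenic factor, by 0.30 ± 0.08 (adjusted p = 0.0157). VEGFA had 104 and 105 CPM with p53 KO etoposide medium, against 86.1 and 83.0 CPM with p53 WT etoposide medium. In the same contrast, of the 9 other isoforms and partners tested, HKDC1, a hexokinase-like gene, changed by −0.75 ± 0.24 (adjusted p = 0.0468). PDP1, the phosphatase that opposes PDK1, rose by 0.34 ± 0.11 (1 of 12 genes of pyruvate entry, adjusted p = 0.049). IDH3A rose by 0.26 ± 0.08 (1 of 16 of the tricarboxylic acid cycle, adjusted p = 0.0438). None of the genes of the pentose phosphate pathway, the NADH shuttles or gluconeogenesis passed. For etoposide against DMSO medium of p53 WT cells, 3 of the 16 hypoxia response genes rose and 6 fell, where 16.1% and 18.5% of transcripts did. VEGFA was among those that fell (−0.30 ± 0.08, adjusted p = 0.00586). With p53 KO media 3 of the 16 rose and 1 fell, where 18.8% and 18.4% of transcripts did, and VEGFA did not pass.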

How the data were processed

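The authors deposited guide counts of 18 CRISPR screen libraries, gene counts of 10 RNA-seq libraries and a table of log2 fold changes and p-values. Per the submitters' processing notes, Bowtie2 and DESeq2 are listed for the screen and DESeq2 and hg19 for RNA, with versions, RNA aligner, annotation, strandedness and guide library not given in the sources used here. Per the file headers, the authors' log2 table lists fold changes, p-values and adjusted p-values, and it matched etoposide medium of p53 KO against p53 WT cells (Pearson's r across genes 0.99997, described here without a test).

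Deposited guide counts were summed per gene (at least 3 guides, 19044 genes). Single guides, summed genes and RNA genes were fitted over all groups with edgeR 4.0.16 in R 4.3.3 (TMM, filterByExpr, quasi-likelihood test, two-sided, Benjamini-Hochberg threshold 0.05), with residual degrees of freedom of 12 (screen) and 5 (RNA). Libraries are the replicates. RNA symbols in currency form (48, among them PGK1 and PGK2) were restored. CPM used TMM sizes, and RPKM the transcript length in the deposited table. No library was left out and no 2 libraries agreed within sampling noise. The fits were tested on simulated data. Alternatives were DESeq2 1.42.0, limma 3.58.1, other scaling and filters, fewer libraries and a replicate block. The members and lists were chosen with earlier results of these data known. Genes named with full values are members past the threshold (at most 10 a comparison) and up to 3 genes of each context list. Counterparts in the matching comparison are given for most members, but not for some RNA calls with 1 source of medium. Promoter sequences and pseudogene names are from RefSeq, GRCh38.p14. Counting precision rests on depth, and PCR-amplified counts are not independent molecules. Some genes of the context and marker lists are not reported here.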

Additional observations from a re-analysis of the deposited data

Results flagged for a closer look

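The transcript of NDRG1, a stress- and hypoxia-responsive gene of the hypoxia list, was marked because the effect of etoposide medium differed between the sources of medium by a test of the difference itself. It had 171 and 164 CPM with etoposide medium against 108 and 105 CPM with DMSO medium of p53 KO cells, and 125 and 133 CPM with etoposide medium against 120 and 119 CPM with DMSO medium of p53 WT cells. The difference of the log2 effects was 0.54 ± 0.10 (edgeR adjusted p = 0.0105).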

How the results depend on the processing

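No called value of a named member changed sign under any setting tried. Values near 0 with no call did, among them GPI growth in p53 WT cells (−0.06 with scaling to non-targeting guides), LDHA growth in p53 KO cells (−0.03 with that scaling), HK1 growth in p53 KO cells (0.02 with limma) and HK2 with etoposide in p53 WT cells (0.03 with that scaling). In the screen, ALDOA, GAPDH, PGAM1 and TPI1 kept their calls in both growth and both etoposide against DMSO comparisons under all 12 settings tried for each. For etoposide against T0 in p53 KO cells 2 members passed, against 4 with DESeq2, 0 with scaling to non-targeting guides and 0 with the mean over guides in limma. In p53 WT cells 0 passed, against 2 with only the libraries compared. For RNA, DMSO media of p53 KO against p53 WT cells gave 0 members, against 1 with DESeq2 and 4 with no filter, and the difference of etoposide effects gave 0, against 1 with no filter. The cause of these moves was not tested.

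Leaving out 1 library at a time gave 4 to 6 members for growth in p53 KO cells and 5 to 7 in p53 WT cells, 7 to 10 for etoposide against DMSO in p53 KO cells and 6 to 7 in p53 WT cells, and 0 to 2 for etoposide against T0 in p53 KO cells. For RNA it gave 6 to 11 for etoposide against DMSO medium of p53 KO cells and 5 to 7 for p53 WT cells, 3 for etoposide media of p53 KO against p53 WT cells in each case, 0 to 11 for DMSO media, 0 to 4 for the difference of effects, 8 to 17 for p53 KO DMSO medium against T0 and 7 to 8 for p53 WT DMSO medium. A library left alone in its RNA group was assumed to vary like the other groups.

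Libraries share letters A, B and C across groups. Same-letter deviations correlated at −0.05 to 0.17 in the screen and −0.04 to 0.10 in RNA. Values above 0.1 were found in 4 of 18 same-letter screen pairs, all among p53 KO libraries, and in 2 of 20 in RNA. With 2 RNA libraries a group, the A pair and the B pair of any 2 groups have the same value by construction. The 2 RNA pairs are thus 1 value (0.10), between p53 KO DMSO medium and p53 WT etoposide medium. Pairs of p53 KO screen libraries with different letters ran from −0.12 to 0.10. The letters thus show no clear pairing, but a weak one in the p53 KO screen libraries is not excluded. With the letter as a replicate block, growth gave 6 members in p53 KO cells and 7 in p53 WT cells, etoposide against DMSO gave 10 in p53 KO cells and 7 in p53 WT cells, and etoposide against T0 gave 3 in place of 2 in p53 KO cells and 1 in place of 0 in p53 WT cells. No RNA count changed with it. Leaving out guides that match the genome at more than 1 place was not run, since guide sequences are not used here. Scaling to non-targeting guides shifted the median of all genes by at most 0.07 in size on the log2 scale. Depth limits PKLR, PFKFB1, LDHC and HK3, whose transcripts had few counts.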
